A study of Mus musculus with 17 samples.

Results

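The core circadian clock was examined in hand-picked cells of the mouse retinal pigment epithelium (RPE), the pigmented cell layer behind the photoreceptors, through 10 genes taken by their symbols from the 22253 genes of the count table: Arntl, Clock, Per1, Per2, Per3, Cry1, Cry2, Nr1d1, Nr1d2 and Dbp. All 10 were found. All mice were Serpine3GFP/+ animals, 2 months of age, in which a green fluorescent protein reporter sits in 1 allele of Serpine3, so that every group, controls included, carried the same disrupted allele. There were 6 libraries of GFP+ cells of the periphery (GFP+-RPE), 5 of GFP- cells of the periphery (peripheral GFP--RPE, ctrl periphery in the labels) and 6 of GFP- cells of the center (central GFP--RPE, ctrl center). Each library was 1 pool of cells, of 10 to 15 cells by the labels and of 6 to 12 by the methods. The pools came from mice numbered here 1 to 7. Mice 1, 2, 4, 5 and 7 gave a pool of each group, mouse 3 gave only GFP+-RPE, mouse 6 gave only central GFP--RPE, and mouse 1 carries 2 animal numbers.

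The mammalian clock is a feedback loop of transcription. The activators BMAL1, the product of Arntl, and CLOCK bind E-box elements in DNA and switch on the Period and Cryptochrome genes, whose proteins return to the nucleus and repress their own activators. In a side loop, the same activators switch on Nr1d1 and Nr1d2, which code for the nuclear receptors REV-ERBα and REV-ERBβ and repress Arntl through ROR elements. Dbp, a transcription factor that acts through D-boxes, is an output driven directly from E-boxes. In many tissues Arntl peaks almost opposite to Dbp and Nr1d1 in the day, and in the eye the clock sets the daily rhythm with which the RPE takes up shed photoreceptor tips. The hour at which each mouse was killed is not given in the sources used here, so that a difference of hour between mice cannot be told apart from any other difference between them. Pools of the same mouse share that hour, which makes the agreement among them a measurement of interest.

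The promoter windows of the genes were searched for the letters of the elements named for this loop, and the stretches with a match are printed to show where these letters stand. RefSeq windows of GRCm38.p6, which run from 250 bases before a gene's start to 50 bases after it, were found for 9 of the 10 genes, in 13 windows. The letters CACGTG (E-box) were found in windows of 2 genes, Cry1 and Per1, and in 7.15% of all 32851 windows. The related letters CACGTT (E-prime-box) were found for 3 genes, Cry1, Cry2 and Nr1d1, and in 4.68% of all windows. TTATGTAA, a form of the D-box, was found only for Per3, at 2 places, against 0.938% of all windows, and TAGGTCA, a ROR element, only for Arntl, against 2.61%. The D-box TTACGTAA (0.119% of all windows) and the cAMP element TGACGTCA (1.79%) were found in 0 of the 13, and the windows of Clock, Nr1d2 and Dbp held none of the letters searched. Both strands were searched, the E-box letters do not overlap the E-prime-box letters, and capitals mark the matched letters in the lines that follow, each read on the strand of its gene.
Cry1, chr10:85185089-85185153, minus strand: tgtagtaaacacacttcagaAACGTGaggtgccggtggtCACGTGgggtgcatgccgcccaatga
Per1, chr11:69098763-69098808, plus strand: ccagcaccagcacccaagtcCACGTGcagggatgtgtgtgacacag
Cry2, chr2:92434210-92434255, minus strand: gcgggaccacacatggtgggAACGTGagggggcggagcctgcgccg
Nr1d1, chr11:98775380-98775425, minus strand: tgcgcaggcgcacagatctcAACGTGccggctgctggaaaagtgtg
Per3, chr4:151044796-151044890, minus strand: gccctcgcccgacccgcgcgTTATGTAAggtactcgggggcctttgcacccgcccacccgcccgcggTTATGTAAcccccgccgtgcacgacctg
Arntl, chr7:113207531-113207557, plus strand: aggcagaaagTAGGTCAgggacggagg
The first 5 stretches lie before the RefSeq start of their window, whereas that of Arntl lies after it, in the first exon. For Per1 that start is an internal one. Its stretch lies inside the gene as annotated by GENCODE, which runs from 69095217 to 69109960. A match of letters is a description of the window and is no measurement of binding.

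Library depth and quality bear on every value. Total counts ranged from 9896118 to 22467079. Between 9089 and 10231 genes reached 10 counts in the GFP+-RPE pools, whereas the span was 7966 to 10543 in the GFP- periphery and 5392 to 10450 in the center. The lowest numbers were those of the central pools of mice 5, 7 and 4 (5392, 6430 and 6681). The same 3 pools had mitochondrial shares of counts of 47.3%, 37.0% and 32.4%, whereas GFP+-RPE ranged from 0.710% to 17.2%. Of 10 RPE markers, 9 were above 3 counts in all 17 libraries, and Best1 reached at most 2 counts. Markers of other cells were low as lists: Rcvrn, C1qa, C1qb, Tyrobp and Gfap were at 0 in all libraries, the 10 photoreceptor markers summed to 0.477 to 87.9 CPM (counts scaled to library size) over the libraries, and the 6 macrophage markers summed to 35.6 to 146 CPM, nearly all of it Csf1r. The 4 markers of melanocytes and Schwann cells summed to 39.4 to 241 CPM, with Sox10 above 3 counts in all 17. In bulk pools, fewer cells that use a gene cannot be told apart from less RNA per cell.

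The clock was detected as a whole but unevenly. Clock, Per1, Per3 and Dbp were above 3 counts in all 17 libraries, Nr1d2 in 16, Per2, Cry2 and Nr1d1 in 15, Cry1 in 13 and Arntl in 9. Of the 170 values, 19 were at 3 counts or fewer, which is 11.2%, against 17.3% over the 10687 genes with at least 10 counts in at least 5 libraries. They fell unevenly over the groups. GFP+-RPE held 5 of 60, and these 5 were all Arntl. Peripheral GFP--RPE held 3 of 50, and central GFP--RPE 11 of 60, beside shares over all those genes of 11.9%, 13.0% and 26.3% in the same groups.

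**Figure D1:**
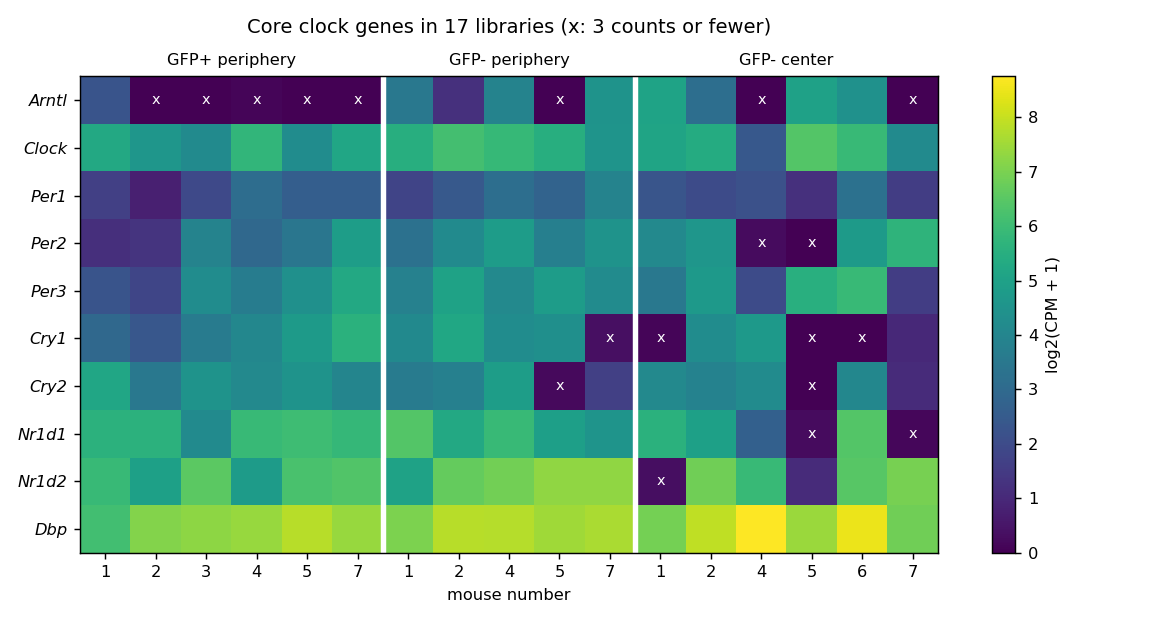
Level of each clock gene, as log2(CPM + 1) in color, in 17 libraries ordered by group and mouse number, with a cross where the count was 3 or fewer. Dbp is bright in every column, and 5 of the 6 GFP+-RPE columns carry a cross for Arntl.

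Dbp was the most abundant of the 10 clock transcripts. Per kilobase of exon, its level averaged 64.9 CPM ± 29.6 (SD, n = 17 libraries) and it was above the next gene, Nr1d2 (14.3 ± 9.02 CPM per kilobase), in 17 of 17 libraries. Nr1d2 and Nr1d1 (13.2 ± 8.52) did not differ in order, Nr1d2 being the higher in 9 of 17. Nr1d1 was above Cry1 (4.34 ± 4.13) in 15 of 17 libraries. Below these came Clock (2.82), Per2 (2.67), Cry2 (2.23), Per3 (2.12), Arntl (1.12) and Per1 (0.844 CPM per kilobase), and each neighbor among these was the higher in 8 to 12 of 17 libraries, that is, within their spread. Of the summed CPM of the 10 genes, Dbp took from 25.5% to 78.6%, with a median of 42.5%, and was first in 16 of 17 libraries. The exception was the central pool of mouse 7, where Nr1d2 (124 CPM) was above Dbp (116 CPM).

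The activators differed from each other in how they were detected. Arntl lay at 98 counts in the GFP+-RPE pool of mouse 1, at 1 count in that of mouse 4 and at 0 in those of mice 2, 3, 5 and 7. In peripheral GFP--RPE it lay at 186, 25, 294, 0 and 217 counts in mice 1, 2, 4, 5 and 7. In central GFP--RPE it lay at 391, 146, 0, 169, 272 and 0 counts in mice 1, 2, 4, 5, 6 and 7. Most GFP+ pools thus had none, while in both GFP- groups most pools had between 25 and 391 counts and others of the same group had none, so that the groups overlap. Mean levels were 0.646 CPM ± 1.55 (SD, n = 6) in GFP+-RPE, 9.45 ± 8.98 (n = 5) in peripheral GFP--RPE and 15.4 ± 14.9 (n = 6) in central GFP--RPE. GFP+-RPE against peripheral GFP--RPE gave a log2 fold change of −3.83 (SE 2.04, 95% interval −8.16 to 0.50), which did not pass (adjusted p = 0.939, by the quasi-likelihood test of edgeR, with p-values adjusted after Benjamini and Hochberg). The two-sided exact permutation test of the mean CPM gave p = 0.0281, or 0.442 when adjusted over all genes tested. Among the 5 mice with all pools, the GFP+ pool was the lower in 4 and equal, at 0, in mouse 5. Against central GFP--RPE, Arntl was removed by the filter on low counts. Without that filter edgeR gave −4.50 (SE 2.03, adjusted p = 0.231), DESeq2 gave an adjusted p of 0.290, and the exact permutation p was 0.0606. Arntl was above 3 counts in all 3 pools of mouse 1 only. In the GFP+ group, 3 counts equal 0.116 to 0.226 CPM, depending on the library. The exons of Arntl share 33 bases with a gene on the opposite strand, Gm45355, which is absent from the table.

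Clock, the partner of Arntl, was present throughout. It ranged over the GFP+-RPE pools from 17.02 to 52.8 CPM, with a median of 29.2. In peripheral GFP--RPE it lay at 43.4, 68.9, 56.6, 44.1 and 21.95 CPM in mice 1, 2, 4, 5 and 7, and in central GFP--RPE it ranged from 4.29 to 84.8, with a median of 37.4. The groups overlapped throughout, the center being the widest. No difference passed, with log2 fold changes of −0.49 (SE 0.69) for GFP+-RPE against the center, −0.59 (SE 0.44) against the GFP- periphery and 0.13 (SE 0.71) between both GFP- groups.

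**Figure D2:**
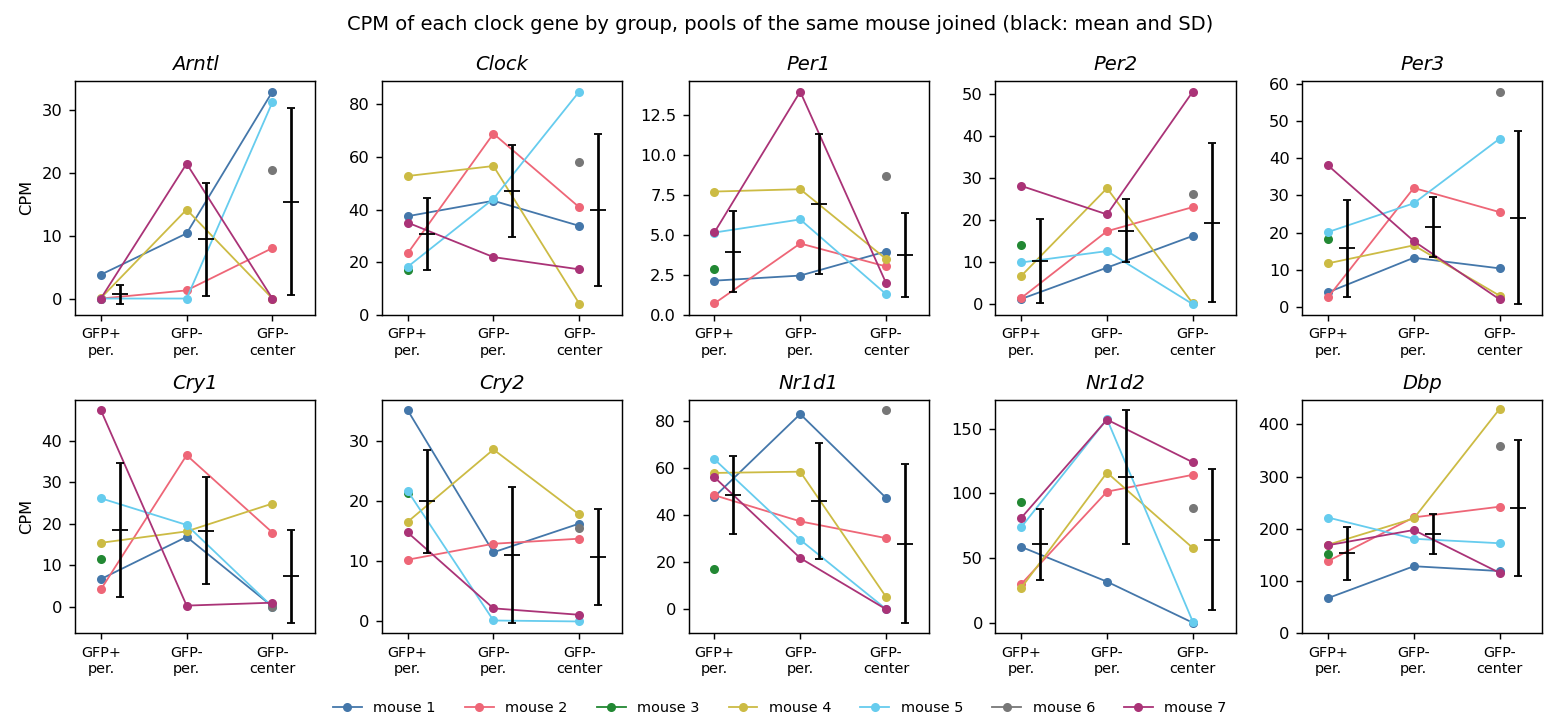
CPM of each clock gene in peripheral GFP+, peripheral GFP- and central GFP- pools (x axis), with pools of the same mouse joined by a line and the mean and SD of each group in black. Lines cross within nearly every panel, and for Nr1d1 all 5 lines end lowest in the center.

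The Period genes, which code for repressors of the activator pair, were at low to moderate levels. Per1, the lowest of them, lay between 0.712 and 13.9 CPM, and even its lowest count, 7 in the central pool of mouse 5, was above the floor. In peripheral GFP--RPE it lay at 2.45, 4.46, 7.85, 5.96 and 13.9 CPM in mice 1, 2, 4, 5 and 7, and in GFP+-RPE it ranged from 0.712 to 7.70, with a median of 3.99. Per1 was lower in GFP+-RPE than in the GFP- periphery in 5 of 5 mice, although the ranges overlap and the log2 fold change of −0.78 (SE 1.09) did not pass (adjusted p = 1, edgeR). Per2 lay between 1.24 and 28.1 CPM in the GFP+ pools, between 8.69 and 27.6 in the GFP- pools of the periphery and between 0 and 50.5 in those of the center, where mouse 5 had 0 counts and mouse 4 had 2. Per3 ranged from 2.52 to 38.1, from 13.2 to 32.02 and from 2.00 to 58.0 CPM in the same order of groups. Per2 and Per3 were lower in GFP+-RPE than in the GFP- periphery in 4 of 5 mice each, the exception being mouse 7. Their log2 fold changes there, −0.75 (SE 0.88) and −0.44 (SE 0.73), were smaller than their errors.

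The Cryptochrome genes code for the partners of the Period proteins in repression, and Cry1 was the clock gene most often at 3 counts or fewer in the center. It was above 3 counts in 6 of 6 GFP+-RPE pools, in 4 of 5 peripheral GFP--RPE pools and in 3 of 6 central pools, where it lay at 1, 325, 249, 0, 0 and 9 counts in mice 1, 2, 4, 5, 6 and 7. Its mean was 18.6 CPM ± 16.1 (SD, n = 6) in GFP+-RPE, 18.3 ± 12.8 (n = 5) in peripheral and 7.30 ± 11.1 (n = 6) in central GFP--RPE. The log2 fold change of GFP+-RPE against the center was 1.36 (SE 1.49) and did not pass. Cry2 was above 3 counts in 6, 4 and 5 pools of those groups and averaged 19.9 ± 8.56, 11.1 ± 11.3 and 10.7 ± 7.99 CPM. GFP+-RPE was higher than the center in 3 of 5 mice and higher than the GFP- periphery in 3 of 5, with log2 fold changes of 0.87 (SE 1.10) and 0.88 (SE 0.92). Thus neither passed. The exons of Cry2 share 295 bases with D930015M05Rik on the opposite strand, which is absent from the table.

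The REV-ERB genes of the side loop were, after Dbp, the most abundant of the 10. Nr1d1 lay at 47.9, 48.6, 17.1, 58.1, 63.9 and 56.2 CPM in the GFP+-RPE pools of mice 1, 2, 3, 4, 5 and 7. In peripheral GFP--RPE it lay at 83.1, 37.5, 58.6, 29.6 and 21.9 CPM in mice 1, 2, 4, 5 and 7. In central GFP--RPE it lay at 47.5, 30.3, 5.39, 0.185, 84.7 and 0.111 CPM in mice 1, 2, 4, 5, 6 and 7. The central pools of mice 5 and 7 had 1 count each, while that of mouse 6 was the highest of all 17, so the group spanned the whole range. Nr1d1 was the only clock gene lower in the center than in both peripheral pools in 5 of 5 mice, in mouse 1 by as little as 47.5 against 47.9 CPM. The log2 fold change of GFP+-RPE against the center was 0.77 (SE 1.02, 95% interval −1.39 to 2.93) and did not pass (adjusted p = 1.00, edgeR). Over the 17 libraries, log2(CPM + 1) of Nr1d1 had a Pearson correlation of 0.859 with how many genes reached 10 counts and of −0.771 with the mitochondrial share. The first is exceeded by 0.178% of 10687 genes, whose median is 0.284. The values share library, mouse and group, and the part of the number of genes in the level of Nr1d1 was not tested. Nr1d1 shares 263 exon bases with Thra, the thyroid hormone receptor gene on the opposite strand, which lay between 0 and 29.2 CPM and had a correlation of 0.754 with it. As the use of strand in counting is not given in the sources used here, reads of the shared bases cannot be told apart.

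Nr1d2 was the only clock gene at an unadjusted p under 0.05 in edgeR with its filter, the tests of Arntl without the filter and by exact permutation being given with that gene. It lay at 58.8, 30.1, 93.2, 27.1, 74.0 and 81.1 CPM in the GFP+-RPE pools of mice 1, 2, 3, 4, 5 and 7. In peripheral GFP--RPE it lay at 31.9, 101, 116, 157 and 157 CPM in mice 1, 2, 4, 5 and 7. Mice 2, 4, 5 and 7 had the lower level in the GFP+ pool, and mouse 1 had the higher. The log2 fold change was −0.88 (SE 0.40, 95% interval −1.74 to −0.03), with an adjusted p of 0.881 (edgeR). In central GFP--RPE it ranged from 0.252 to 124 CPM, with 3 counts in mouse 1 and 6 in mouse 5.

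Dbp, the output gene, was the steadiest of the 10, with a coefficient of variation of 45.6% over the 17 libraries against 54.3% to 136% for the others. In GFP+-RPE it lay at 67.4, 138, 153, 170, 222 and 169 CPM in mice 1, 2, 3, 4, 5 and 7. In peripheral GFP--RPE it lay at 128, 222, 220, 181 and 198 CPM in mice 1, 2, 4, 5 and 7. In central GFP--RPE it lay at 119, 242, 429, 172, 358 and 116 CPM in mice 1, 2, 4, 5, 6 and 7. The means were 153 ± 50.6, 190 ± 38.2 and 240 ± 130 CPM (SD, n = 6, 5 and 6) in that order, and the central range overlaps both others. GFP+-RPE against the center gave a log2 fold change of −0.68 (SE 0.35, 95% interval −1.41 to 0.06), which did not pass (adjusted p = 0.938, edgeR), and 3 of 5 mice had the lower level in the GFP+ pool. Among 1050 genes within 2-fold of its mean level, 70.9% had a smaller coefficient of variation. Its correlation with the number of genes was −0.255. Dbp shares 539 exon bases with Sphk2, a sphingosine kinase gene on the opposite strand, which stayed between 0.272 and 33.2 CPM.

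Across the 3 comparisons no clock gene was called, a call needing an adjusted p under 0.01 and a log2 fold change over 1 in either direction in edgeR. For GFP+-RPE against central GFP--RPE, 0 of the 9 clock genes tested were higher and 0 lower, beside 0.0431% of 9286 genes called higher and 0% called lower. Of these 9, 4 fold changes were above 0 and 5 below, with a median log2 fold change of −0.11, and 0 were at an unadjusted p under 0.05, beside 5.8% of all genes tested. For GFP+-RPE against peripheral GFP--RPE, 0 of 10 were called, beside 0.0396% of 10102 genes called higher and 0% lower. Here 3 were above 0 and 7 below, with a median of −0.51, against a median over all genes of 0.01, and 1 (Nr1d2) was at an unadjusted p under 0.05, beside 5.58% of all genes tested. For peripheral against central GFP--RPE, 0 of 10 were called, beside 0% of 9535 genes called higher and 0% lower. There 5 were above 0 and 5 below, and 0 were at an unadjusted p under 0.05, beside 2.7% of all genes tested. DESeq2 called 0 of the 10 in each comparison. Over all genes it called 83 higher and 123 lower in GFP+-RPE against the center. These numbers were 37 and 29 against the GFP- periphery, and 17 and 11 between both GFP- groups. The ranges of the groups overlapped for all clock genes tested, while 1.13%, 1.29% and 0.755% of the genes tested had ranges apart in the 3 comparisons. The comparisons share libraries, so that their fold changes are not independent. The backgrounds are near 0 in edgeR, so a count of 0 among 10 genes is no result about the clock.

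**Figure D3:**
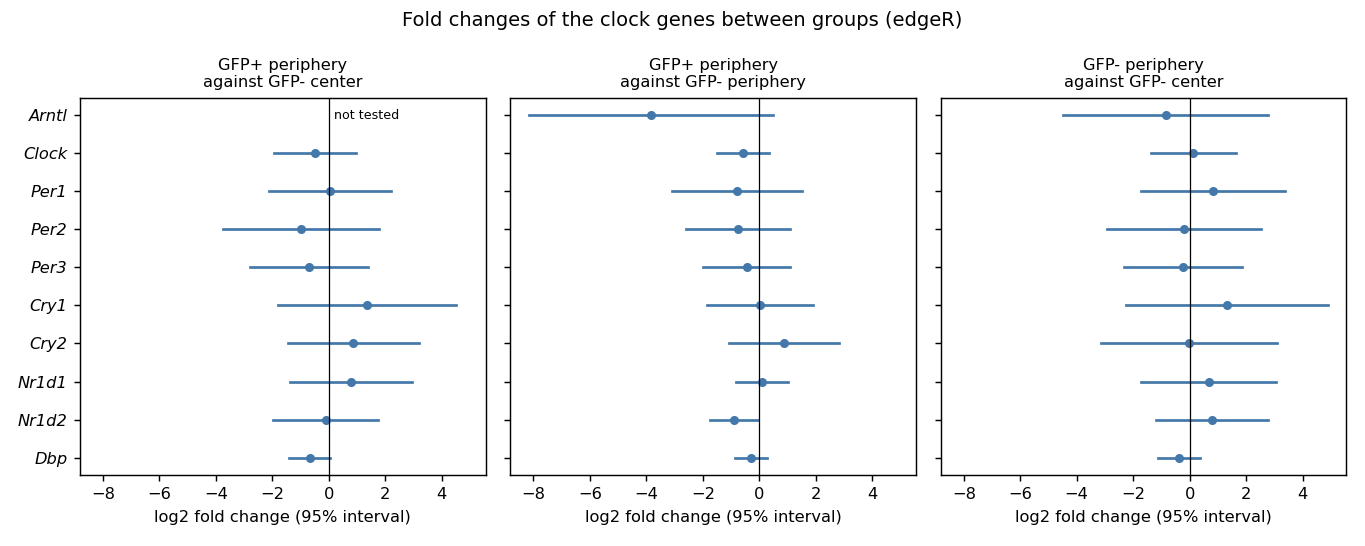
log2 fold change (point) and 95% interval (line) of each clock gene in 3 comparisons by edgeR's quasi-likelihood test. All intervals include 0 except that of Nr1d2 in GFP+ against GFP- periphery, which ends at −0.03, and the intervals of Dbp are among the narrowest.

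The agreement between pools of the same mouse was then measured as an intraclass correlation of log2(CPM + 1) over the 15 pools of mice 1, 2, 4, 5 and 7, after the group means were removed. This is 1 where the pools of a mouse are alike and differ from those of other mice, and is at or below 0 where they differ as much as pools of different mice. The 10 clock genes had a median of 0.029 (jackknife SE 0.131 over mice), beside 0.021 for all 10466 genes tested, and 6 of 10 were above 0, beside 52.8% of all genes. The median SD between mouse means was 0.930 for the clock genes and that within a mouse 1.40, against 0.772 and 1.35 over all genes. At the median, pools of the same mouse were thus hardly more alike in clock transcripts than pools of different mice.

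Dbp and Cry2 had the highest agreement of the 10, 0.442 (jackknife SE 0.436) and 0.441 (SE 0.115). Of the 10466 genes tested, 273 lay between 0.40 and 0.45 as these 2 did, and others lay higher, up to between 0.90 and 0.95. For Dbp, the highest of the 3 pools of a mouse was 1.28 to 2.53 times the lowest, with a median of 1.75, while the mouse means ran from 105 CPM in mouse 1 to 273 in mouse 4. Without mouse 1 the value for Dbp was −0.020, so that it rests on mouse 1, whose pools carry 2 animal numbers and may not come from a single animal. For Cry2, all 3 pools of mice 1, 2 and 4 lay above 10 CPM, whereas the GFP- pools of mice 5 and 7 lay between 0 and 2.18 CPM, and its correlation with the mitochondrial share was −0.732. The lowest value was that of Clock (−0.274, SE 0.168), whose pools of mouse 4 lay at 52.8, 56.6 and 4.29 CPM.

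For other clock genes the ratio of the highest to the lowest pool was taken over mice with all 3 pools above 3 counts. Its median was 1.75 for Nr1d1 (3 mice), 2.39 for Cry2 (4 mice), 2.95 for Clock (5 mice) and 4.05 for Nr1d2 (4 mice). It was 4.605 for Per1 (5 mice), 5.17 for Cry1 (2 mice), 5.53 for Per3 (5 mice) and 13.1 for Per2 (3 mice). Arntl had a ratio of 8.65 in mouse 1 only. Nr1d1 had 1 count in the central pools of mice 5 and 7, so its median leaves these mice out. There its GFP+ pools lay at 63.9 and 56.2 CPM and its central pools at 0.185 and 0.111. The widest ratios among pools that were all above 3 counts were the following. In mouse 5, Nr1d2 lay at 157 CPM in the peripheral GFP- pool and at 1.11 in the central pool, a ratio of 142. In mouse 7, Per3 lay at 38.1 CPM in the GFP+ pool and at 2.00 in the center, a ratio of 19.1. The central pools in these ratios had 6 and 18 counts and are those with the fewest genes and the highest mitochondrial shares. Among these 5 mice, no mouse was the highest in all 3 groups, or the lowest in all 3, for any of the 10 clock genes.

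A test of differences between mice, in a fit with group and mouse as terms, passed 0 of the 10 clock genes at an adjusted p under 0.05 (edgeR), beside 0% of 10466 genes. The smallest unadjusted p among them was that of Dbp, 0.0659. At an unadjusted p under 0.05 there were 0 of the 10, beside 3.52% of all genes, and DESeq2 passed 0 of the 10. The animal numbers fall into 2 separate runs, mice 1 to 3 and mice 4 to 7, which the labels do not explain. On counts summed per mouse, 2 mice of the first run against 3 of the second, 0 of 10 clock genes passed in edgeR or DESeq2, beside 0.0165% of 12120 genes in edgeR. At an unadjusted p under 0.05 in edgeR there were 0 of the 10, beside 601 of the 12120 genes. The fold changes were −1.19 (SE 1.24) for Per1, −0.85 (SE 0.76) for Per2, −0.65 (SE 0.38) for Nr1d2, −0.44 (SE 0.34) for Dbp and 0.39 (SE 1.09) for Arntl on the log2 scale.

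**Figure D4:**
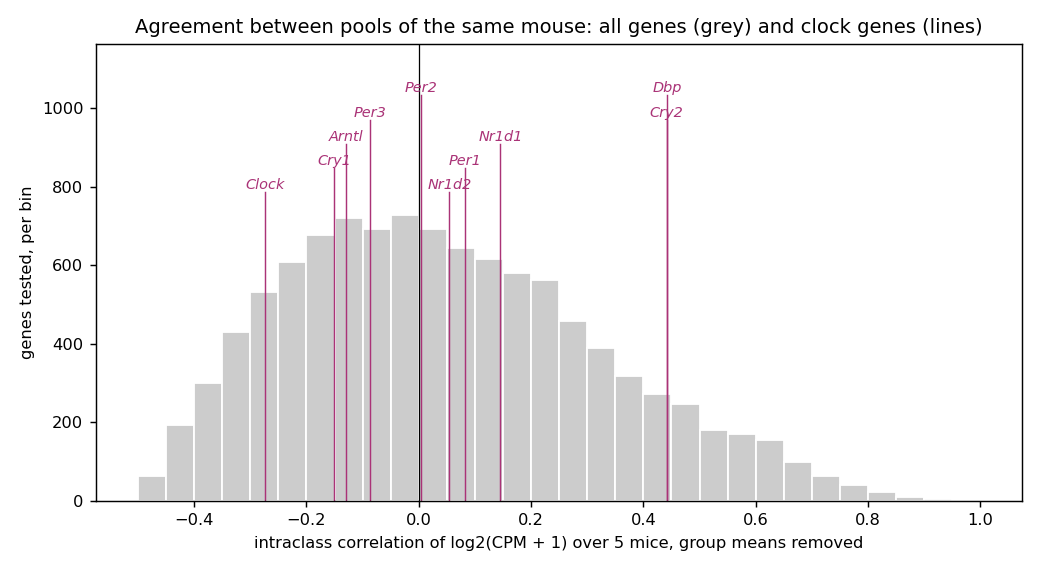
Number of genes (y axis) by intraclass correlation between pools of the same mouse (x axis), with all genes tested as grey bars and each clock gene as a named line. The clock genes spread over the bulk of the distribution, from Clock at −0.274 to Cry2 and Dbp at 0.441 and 0.442.

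The levels of the clock genes were compared with each other over the 17 libraries, which share mice and groups, so that correlations of log2(CPM + 1) are descriptions. Of 45 pairs, 37 were above 0 and 8 below, with a median Pearson correlation of 0.169. The share of pairs above 0 over all genes was not computed, so this count is no result about the clock. Arntl and Dbp, opposite phases of the textbook clock, had 0.007 (Spearman 0.041), and Arntl and Nr1d1 had 0.042 (Spearman 0.142). As Arntl was above 3 counts in only 9 of the 17 libraries and at 0 in 7, its correlations cannot show whether such phases are present. The activators Arntl and Clock had 0.480, and Dbp and Per3 0.384. The repressors Per2 and Cry1 had 0.036. The ends of the range were Arntl with Cry1 at −0.612 and Cry2 with Nr1d1 at 0.649. Without the 2 libraries farthest from the median of the first gene, Dbp and Per3 had 0.701, Arntl and Nr1d1 0.353, Arntl and Clock 0.424, Arntl and Dbp 0.140, and Per2 and Cry1 −0.114. The 5 genes most like Dbp in their pattern were H2az2 (0.856), Romo1 (0.778), Lrat (0.776), Chchd10 (0.766) and Tomm7 (0.765), among 7931 genes. For Arntl these were Tnrc6c (0.714), Tecr (0.699), Ptrh2 (0.692), Khdc4 (0.691) and Ssbp2 (0.691), among 7932 genes.

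Among 24 other clock genes, which include kinases, ubiquitin ligases and further factors of the loop, 0 were called in any of the 3 comparisons by edgeR. At an unadjusted p under 0.05 there were 3 of 18 tested in GFP+-RPE against the center, 4 of 20 against the GFP- periphery and 3 of 19 between both GFP- groups, beside the 5.8%, 5.58% and 2.7% of all genes given for the same comparisons. In GFP+-RPE against central GFP--RPE, 18 could be tested, of which 9 were above 0 and 9 below, with a median log2 fold change of −0.002. The lowest p belonged to 3 of the most abundant. Bhlhe41, which codes for the repressor DEC2, lay between 156 and 777 CPM in GFP+-RPE with a median of 426, between 492 and 1341 in peripheral and between 434 and 4754 in central GFP--RPE, with the highest value in mouse 5. Its log2 fold change against the center was −2.14 (SE 0.55, adjusted p = 0.0900, edgeR). Rorb, a ROR receptor gene, and Gsk3b, a kinase of the clock proteins, had −1.97 (SE 0.51, adjusted p = 0.103) and −1.59 (SE 0.43, adjusted p = 0.130). With the mouse as a block, Bhlhe41 passed, at −2.02 and an adjusted p of 0.00156, and Rorb, at −1.76 and 0.0176, did not. Without the central pools of mice 5 and 7, the fold change of Bhlhe41 was −0.997 (adjusted p = 0.636).

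The mitochondrial share moved with these 3 genes. Over the 17 libraries, its correlation with log2(CPM + 1) was 0.961 for Bhlhe41, 0.962 for Rorb and 0.930 for Gsk3b, against a median of −0.255 over 10687 genes, 0.674% of which had a higher value than Bhlhe41. Its part in the differences was not tested. In the test between mice, Bhlhe41 had the lowest p of the clock lists (adjusted p = 0.255, edgeR), and its adjusted p without mouse 5 was 1.

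**Figure D5:**
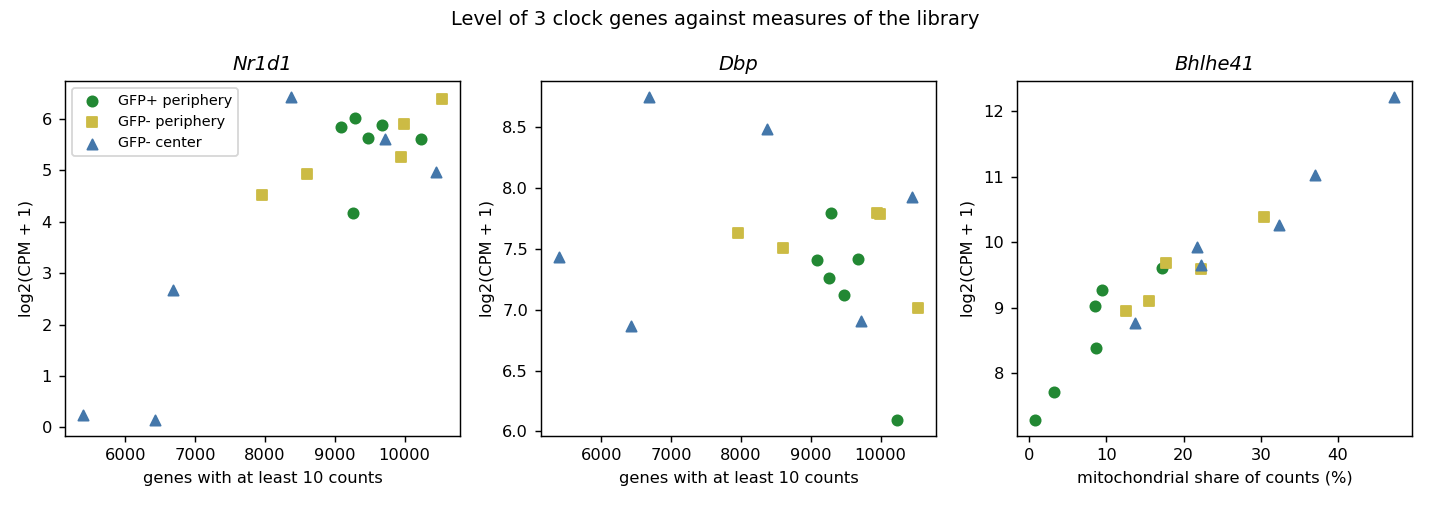
log2(CPM + 1) of Nr1d1 and Dbp against how many genes reached 10 counts, and of Bhlhe41 against the mitochondrial share of counts, in 17 libraries marked by group. Nr1d1 is lowest in the 3 central pools with the fewest genes, Dbp is not, and Bhlhe41 is higher where the mitochondrial share is higher.

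Genes that light, hormones or handling can move were listed beside the clock. Of 8 glucocorticoid targets, 6 could be tested in each comparison, 0 were called by edgeR or DESeq2, and 0 were at an unadjusted p under 0.05. Sgk1, a kinase gene of this list, averaged 1236 CPM ± 254 (SD, n = 17) while Klf9 averaged 39.2 ± 29.4. Of 16 immediate early and stress genes, 3 were above 3 counts in no library, 12 in 8 libraries or fewer, and 0 were called by edgeR or DESeq2. Only 2, 4 and 5 of them could be tested in the 3 comparisons by edgeR, with 0, 1 and 1 at an unadjusted p under 0.05. The highest of them, Jund, averaged 11.47 CPM ± 8.43. Of 16 receptors of light, dopamine, melatonin and related signals, 7 were above 3 counts in no library. The RPE opsins Rgr and Rrh averaged 22674 ± 7454 and 691 ± 168 CPM, Adora2b, an adenosine receptor, averaged 113 ± 57.7, and Vipr2 averaged 9.22 ± 9.03. Only 4, 5 and 4 of these receptors could be tested by edgeR in the 3 comparisons. It called 0 of them, with 1, 2 and 0 at an unadjusted p under 0.05. For this and the 2 lists before it, the shares of all genes tested were 5.8%, 5.58% and 2.7%. So few genes tested allow no reading against these shares. DESeq2 called 1 of them in GFP+-RPE against the center (adjusted p = 0.000784), Opn4, which codes for melanopsin and was too low for the filter of edgeR. In that comparison DESeq2 called 83 genes higher and 123 lower over all genes, against 4 and 0 by edgeR. Opn4 was above 3 counts in 5 of 6 GFP+-RPE pools, in 3 of 5 peripheral GFP--RPE pools and in 0 of 6 central pools. DESeq2 also called Timeless among the other clock genes, which rested on 2 GFP+-RPE pools with 110 and 560 counts, all others being at 1 count or 0. Both were named after their values were seen.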

How the data were processed

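The authors deposited whole-number counts of reads per gene symbol, without normalization, for SMART-Seq libraries. The submitters' processing notes name fastp, Salmon and GRCm38.p6, while the annotation, the versions and the use of strand are not given in the sources used here. Reads were 50 bases long by the methods. From these counts, CPM were computed with TMM scaling over 17 libraries. The groups were compared in R (version 4.3.3) with edgeR (version 4.0.16), on their own libraries alone and with the default filter, TMM and quasi-likelihood test, and DESeq2 (version 1.42.0) as an alternative. Positions and exon lengths were those of GENCODE M21 (GRCm38), in which 98.2% of the symbols were found, and promoter windows were those of RefSeq. A count of 0 allows up to 3 counts, for counting error only, since PCR copies were counted. Groups and mouse numbers came from the labels. Libraries of the same number carry the same animal label, which pairs them. For mouse 1 this label names 2 animals, taken as a pool of both. Over 15 pairs of libraries of the same mouse, deviations from the group means had correlations of −0.020 to 0.093 (median 0.027), and 0 of 15 were above 0.1. Over 81 pairs of libraries of different mice they ran from −0.088 to 0.11 (median −0.0066), with 1 above 0.1. The 2 ranges overlap, so the pairing rests on the labels. The highest correlation between any 2 libraries was 0.924, so none was a copy. Within a group, all pools came from different mice. The clock genes and all lists were chosen with earlier results of these data known. The text names all 10 clock genes, the called genes of each other list and up to 4 more of highest mean CPM. Alternatives were another test, size factors by median of ratios, other filters, all libraries in the fit, the mouse as a block, the run as a covariate, other limits, other pseudocounts (0.5 and 5) and each library or mouse left out; leaving out both central libraries of mice 5 and 7 was chosen after seeing the data. In simulated counts with a coefficient of variation of 1.2, near the value of 1.22 in GFP+-RPE against central GFP--RPE, 1% of genes changed 16-fold were called in that comparison, and at 0.4, 100% were.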

Additional observations from a re-analysis of the deposited data

Results flagged for a closer look

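Among 30 groups of clock gene levels (10 genes in 3 groups), 3 held a library that stood far from the others by Dixon's test. Its chance rate of about 1 in 20 holds for normally distributed values. CPM with values at 0 are not so distributed, so 3 of 30 cannot be read against that rate. Arntl lay at 3.80 CPM in the GFP+-RPE pool of mouse 1, whereas the next highest GFP+ pool was at 0.0755 CPM. Per1 lay at 8.70 CPM in the central pool of mouse 6, against 3.96 CPM in the next. Nr1d1 lay at 17.1 CPM in the GFP+-RPE pool of mouse 3, the lowest of its group, against 47.9 CPM in the next. Mice 3 and 6 each gave a single pool, so these values have no second pool of the same mouse beside them. The GFP+ pool of mouse 3 also had the highest sum of the photoreceptor markers over all libraries, 87.9 CPM. The part of this in its level of Nr1d1 was not tested. Whether the difference of GFP+-RPE from the center differed between the 2 runs of animal numbers was tested for 9 clock genes. Of these, 0 passed, with a smallest adjusted p of 1.00 (edgeR). The share passing over all genes was not taken, so this count is no result about the clock.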

How the results depend on the processing

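In all alternatives run, 0 clock genes were called in the 3 comparisons, between mice and between runs, and the median agreement between pools of the same mouse ranged from −0.078 to 0.110, within its jackknife error. Of the values of single genes under the alternatives, 860 kept their direction and side of the limit, 48 changed sign, 5 newly passed and 1 moved. Every changed sign belonged to a fold change that did not pass. With the mouse as a replicate block, which changed no call of a clock gene, log2 fold changes were 0.15 for Clock and 1.00 for Nr1d2 (GFP+-RPE against center), −0.15 for Cry1 (GFP+-RPE against GFP- periphery), and 1.28, 1.00 and 0.51 for Per2, Per3 and Cry2 (periphery against center). With the run entered as a covariate, Per1 had −0.0377 (GFP+-RPE against center), Cry1 −0.20 (against GFP- periphery) and Cry2 0.00519 (periphery against center). Cry2 had 0.00942 by DESeq2 and 0.0931 without a filter (periphery against center). Without both central libraries of mice 5 and 7, Per1 had −0.28 (GFP+-RPE against center), and Per2 and Gsk3b had 0.0580 and 0.22 (periphery against center). Clock between runs had −0.11 with all 17 libraries. The cause was not tested.

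With single libraries left out, log2 fold changes ranged for GFP+-RPE against center from −0.38 to 0.21 (Nr1d2) and from −0.28 to 0.44 (Per1). Against the GFP- periphery they ranged from −0.51 to 0.42 (Cry1) and from −0.0837 to 0.43 (Nr1d1). For periphery against center they ranged from −0.12 to 0.59 (Clock), from −0.73 to 0.34 (Cry2), from −0.49 to 0.18 (Per3), from −0.46 to 0.38 (Per2) and from −0.88 to 0.0281 (Gsk3b). Between runs, with single mice left out, they ranged from −0.94 to 1.06 (Arntl), from −0.11 to 1.00 (Cry2) and from −0.00201 to 0.33 (Clock). The test of Bhlhe41 between mice passed in DESeq2 (adjusted p = 0.0279), in edgeR without a filter (adjusted p = 3.81e-11) and in edgeR without mouse 2 (adjusted p = 0.0170), and that of Rorb in edgeR without a filter (adjusted p = 0.0246). In the simulated counts, which gave every gene the same spread, a wide spread between pools limited what could be detected. The clock genes differ in spread within a group, from 20.1% for Dbp in peripheral GFP--RPE to 239% for Arntl in GFP+-RPE. The simulated shares are thus no measure for a single gene. The effect of depth was not simulated.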
